A study of Mus musculus with 8 samples.

Results

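The mitochondrial protein import genes were taken from the deposited expression table as the protein-coding genes whose symbol starts with Tomm and a digit or with Timm, together with Samm50, Mtx1, Mtx2, Mtx3, Chchd4, Gfer, Pam16, Dnajc15, Dnajc19, Grpel1, Grpel2, Pmpca and Pmpcb. This gave 39 of the 54532 genes listed, and 36 of them passed the filter of more than 1 FPKM (fragments per gene, scaled to gene length and sequencing depth) in at least 2 libraries. Timm10b, Tomm40l and Tomm6 did not pass. The genes were chosen by name and not by their values.

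The data were RNA-seq of mouse spermatocytes in 8 libraries from C57BL/6J mice, 1 library for each combination of stage, genotype and age. The stages were pachytene (P) and leptotene/zygotene (L/Z). The MFN2 WT group was Mfn2 loxp/loxp, the MFN2 cKO group was Mfn2 loxp/loxp; Stra8-Cre, and the ages were postnatal day (PD) 24 and 52. All groups carried loxP sites at Mfn2, which codes for mitofusin 2, an outer membrane protein of mitochondrial fusion. The study's methods name littermates without Cre as controls, homozygous or heterozygous for the floxed allele. Stra8-Cre is active in male germ cells, so the somatic cells of the cKO testis keep the gene. Cells were separated by sedimentation through an albumin gradient and judged by diameter and shape. How many mice went into a library is not given in the sources used here, and the p-values below rest on the spread between libraries that differ in other respects.

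Nearly all mitochondrial proteins are made in the cytosol and imported. Most enter through the TOM complex of the outer membrane, where receptors pass them to a pore. From there beta-barrel proteins go to the SAM complex, carrier proteins go with the small TIM chaperones of the intermembrane space to the TIM22 translocase, and proteins with a presequence go through the TIM23 translocase and are pulled into the matrix by the PAM motor, where the peptidase MPP removes the presequence. The MIA pathway folds proteins of the intermembrane space by forming disulfide bonds. By these roles the genes fell into TOM (9 genes), SAM (4), small TIM chaperones (6), TIM22 (3), TIM23 (5), PAM (6), MIA (2) and MPP (2). Tomm34, a cytosolic cochaperone, and Timmdc1, an assembly factor of respiratory complex I, made up the last group (2), which shares only the style of name.

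A short motif recurred in the promoters of these genes. RefSeq promoter sequences (GRCm38.p6) were matched for 35 of the 39 genes. They begin 250 bases before the start site and run past it, and the counts cover their whole length. The stretches shown lie in the 250 bases before the start. The core of the GABP site, CCGGAAG or CTTCCGG on the other strand, was found in 16 of the 35 (45.7%), against 12.95% of 17492 protein-coding genes. The match in Timm10b did not lie wholly before the start site. GABP, also called nuclear respiratory factor 2, is an ETS-family factor known to bind many genes of mitochondrial proteins, and other ETS factors read the same core. The site of nuclear respiratory factor 1, GCGCA then any base then GCGC, on either strand, was in 4 of 35 (11.4%), those of Chchd4, Pam16, Timm8b and Tomm20, against 7.17% of all. The match in Timm8b did not lie wholly before the start site either. The cAMP response element TGACGTCA was in 0 of 35, against 2.54% of all. Below are the stretches from 4 genes whose RNA differed by stage and hold the GABP core, and from Tomm20, whose protein was the mitochondrial stain of the study. They are written in the direction of the gene, with the motif in capitals. A match is a run of letters and not a measured binding site.

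Mtx2 (chr2:74825757-74825811, plus strand): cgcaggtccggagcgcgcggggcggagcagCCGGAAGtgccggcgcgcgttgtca
Mtx3 (chr13:92844726-92844767, plus strand): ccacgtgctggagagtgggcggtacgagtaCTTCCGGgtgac
Timm8a2 (chr14:122034634-122034673, plus strand): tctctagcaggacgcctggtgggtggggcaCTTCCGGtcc
Tomm34 (chr2:164071172-164071238, minus strand): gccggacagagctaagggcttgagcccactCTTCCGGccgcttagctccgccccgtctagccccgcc
Tomm20 (chr8:126945922-126945971, minus strand): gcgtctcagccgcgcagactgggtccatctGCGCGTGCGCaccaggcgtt

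The GABP core lay 25 bases before the RefSeq start site in Mtx2, 12 before it in Mtx3 and 10 before it in Timm8a2. Mtx3 and Timm8a2 each held a further copy, 164 and 54 bases before the start. Tomm34 has more than one RefSeq start, and the copy shown lay 39 and 106 bases before them. A further Tomm34 copy lay 9 bases before a start. Samm50, the remaining gene that differed by stage, held none of the 3 motifs in the sequence searched.

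Mfn2 itself stood at 77.1 FPKM in P WT and 39.6 in P cKO at PD 24, and at 82.2 in L/Z WT and 34.3 in L/Z cKO. At PD 52 it stood at 62.2 and 50.1 in P and at 97.5 and 47.9 in L/Z. It was lower in cKO in each of the 4 pairs, least so in P at PD 52 (log2 change over the pairs -0.87, SE 0.19, adjusted p = 0.261 by limma, the linear model on log2(FPKM + 1) used throughout, with Benjamini-Hochberg adjustment over 18950 genes). The values cover the whole gene, so the floxed exon is not seen on its own.

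Reads on genes ran from 14340665 to 20379950 per library. Markers of other cells moved with the groups. The 10 spermatid markers summed to 1216, 102, 2414 and 331.7 FPKM at PD 24 (P WT, P cKO, L/Z WT, L/Z cKO) and to 4704, 2135, 10650 and 19700 at PD 52. They were higher at PD 52 than at PD 24 in every stage and genotype, and higher in L/Z than in P. The 6 Leydig markers ranged from 19.0 to 634.3, highest in P cKO at PD 52, the 6 Sertoli markers from 10.2 to 267.7, the 6 macrophage markers from 5.16 to 198.3, the 5 peritubular myoid markers from 16.9 to 297.5 and the 6 spermatogonial markers from 22.6 to 92.3, and no marker was at 0 in any library. The summed pachytene list (1814 to 3450) and the leptotene and zygotene list (48.3 to 83.4) did not separate the stage labels. The genes of the pachytene list went different ways by stage. Piwil1 stood between 168.2 and 278.3 in the P libraries and between 16.0 and 40.5 in the L/Z libraries. Pou5f2 stood between 44.2 and 63.3 in P and between 3.78 and 4.37 in L/Z. Pgk2 and Spag6 were lower in P than in L/Z within each genotype and age, and Ldhc and Hist1h1t went both ways. The part of these cells in the results below was not tested, and in such mixtures fewer cells of a type and less RNA per cell cannot be told apart.

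Import genes spanned a wide range of levels. FPKM divides reads by the annotated gene length, so ranks between genes rest on those lengths. The median over the 8 libraries was highest for Timm8b (170.4 FPKM), Tomm22 (164.4), Tomm7 (75.3) and Tomm20l (49.4). Timm10b (0.521), Tomm40l (0.381) and Tomm6 (0.114) were lowest. The library with the largest sum over the 39 genes was P WT at PD 52, at 1413 FPKM, and the other 7 lay between 773.1 and 998.5. Of the 36 genes tested, 19 (52.8%) had their highest value in P WT at PD 52, against 11.0% of all genes tested. The lowest value fell in L/Z cKO at PD 52 for 14 (38.9%), against 21.5% of all. All these counts come from single libraries.

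**Figure D1:**
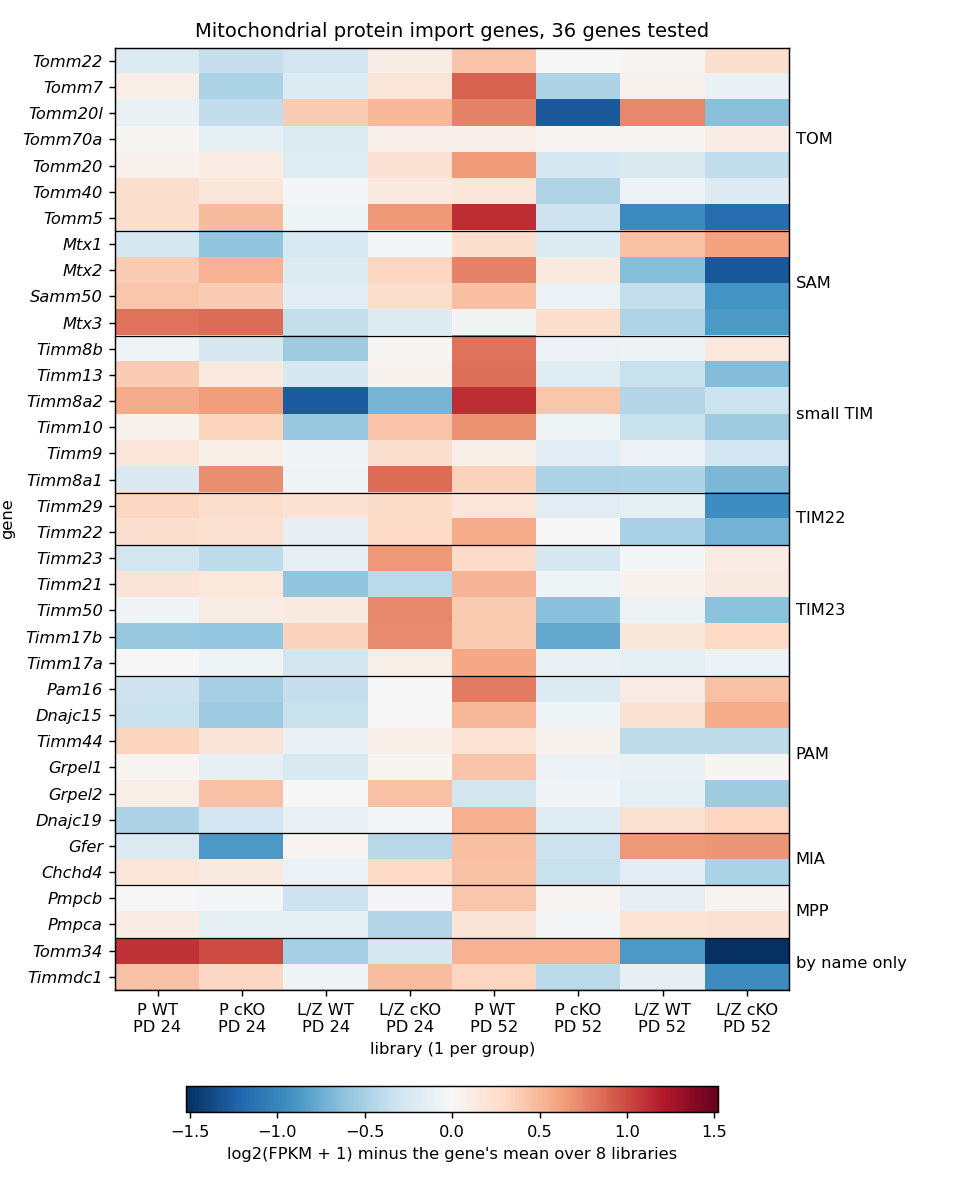
Levels of the 36 import genes tested (rows, by role) in the 8 libraries (columns, 1 per group), as log2(FPKM + 1) minus the gene's mean over the libraries; red is above and blue below the mean. P WT at PD 52 is above the mean for most rows, holding the highest value of 19 genes, and L/Z cKO at PD 52 holds the lowest of 14.

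The first question of the study's design was how MFN2 cKO spermatocytes differed from MFN2 WT. Over the 4 pairs of libraries, none of the import genes passed the test in either direction: 0 of 36 were higher in cKO, where 0.153% of all genes were, and 0 of 36 were lower, where 0.00528% were. At an unadjusted p under 0.05, 2 were lower (Gfer and Tomm20l) and 0 higher. limma-voom on the reads recovered from the FPKM also called 0, with 2 at that unadjusted p. The median log2 change was -0.10 over the import genes and -0.05 over all genes, and 9 of the 36 were above 0. This median turned with the pairs used: it was 0.07 with 25 genes above 0 without the P pair at PD 52, and -0.24 with 1 gene above 0 without the L/Z pair at PD 24.

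The pairs differed from each other, and no import gene moved the same way in all 4, where 5.94% of all genes were lower in each pair and 7.61% higher. With 1 library on each side a pair allows no test, so a gene is counted as higher or lower here when it differed by at least 1.5-fold on the FPKM + 1 scale, among genes above 1 FPKM in a library of the pair. At PD 24 in P, 1 of 36 was higher in cKO (5.19% of all genes) and 1 lower (12.0%), and the median change was -0.06 against -0.10 for all genes. Scaling by total reads turned this median to 0.08, with 27 genes above 0 in place of 10, and the median of all genes from -0.10 to 0.06. At PD 24 in L/Z, 4 of 36 were higher (11.9% of all) and 0 lower (13.6%), and 34 of 36 lay above 0 by any size (57.0% of all), with a median of 0.37 against 0.08. From WT to cKO in this pair the summed markers went from 2414 to 331.7 FPKM for spermatids, from 35.1 to 201.1 for Leydig cells, from 178.4 to 297.5 for peritubular myoid cells and from 45.9 to 86.6 for macrophages, and their part in the change was not tested. At PD 52 in P, 0 were higher (12.8%) and 19 lower (16.5%). There 34 of 36 lay below 0 (54.4% of all), with a median of -0.62 against -0.05. In this pair the Leydig markers summed to 254.4 FPKM in WT and 634.3 in cKO and the spermatid markers to 4704 and 2135. The Sertoli markers summed to 189.1 and 69.25, and the peritubular myoid markers to 38.4 and 16.9. Macrophage markers stood at 5.16 and 12.3 and spermatogonial ones at 43.9 and 24.75. The part of all these cells in the change was not tested. At PD 52 in L/Z, 0 were higher (11.3%) and 5 lower (9.25%), and 17 lay above 0 and 19 below, or 11 and 25 with total-read scaling.

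**Figure D2:**
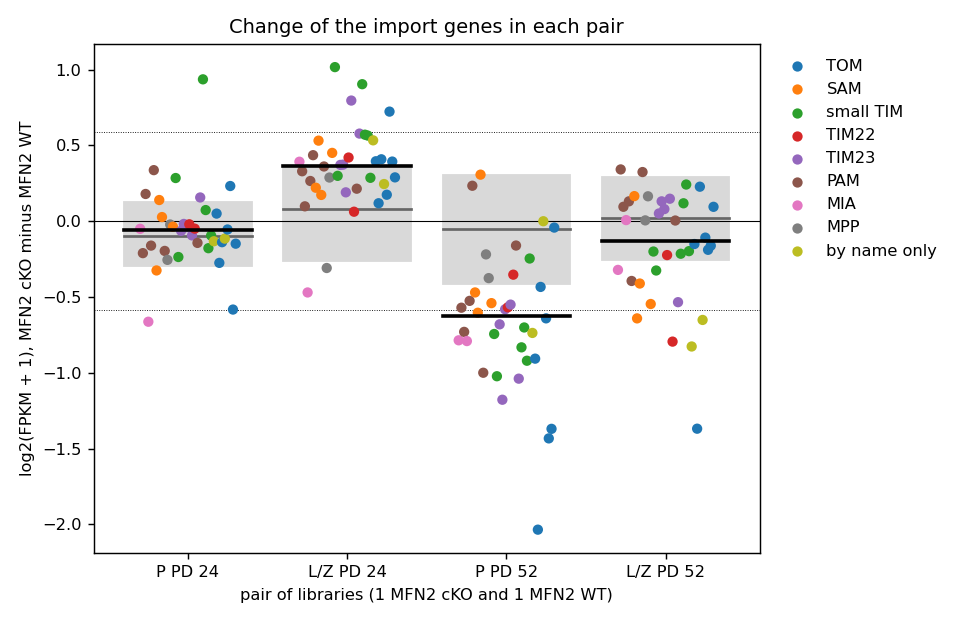
Change of each import gene tested (points, coloured by role) in the 4 pairs of 1 MFN2 cKO and 1 MFN2 WT library, as log2(FPKM + 1) in cKO minus WT. Black lines are the medians of the import genes (-0.06, 0.37, -0.62 and -0.13), grey lines and boxes the median and quartiles of all genes, and dotted lines 1.5-fold; nearly all points are above 0 in L/Z at PD 24 and below 0 in P at PD 52.

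With 34 of 36 genes above 0 in L/Z at PD 24 and 34 below 0 in P at PD 52, most had to be in both. The overlap was 32 of the 36 (88.9%), against 32.6% of all genes. It was the smallest that those counts allow and adds nothing to them. The pattern was picked out after the values were seen. Grpel2, Mtx3, Gfer and Pmpca were the exceptions. In a test of whether the cKO change at PD 52 differed from that at PD 24, with 2 pairs at each age, 0 import genes passed in either direction (0.0475% of all genes higher and 0.00528% lower). The fitted difference was below 0 for 34 of 36, against 48.3% of all genes, with a median of -0.50 against 0.02. At an unadjusted p under 0.05, 8 were lower (Tomm20l, Timm8a1, Timm50, Mtx2, Timmdc1, Timm10, Tomm5 and Samm50) and 0 higher. limma-voom gave 10 at that p and called Tomm20l (adjusted p = 0.0321), and leaving out the L/Z pair at PD 52 called Timm8a1 (adjusted p = 0.0496 by limma). The median lay between -0.20, with 11 genes above 0, without the P pair at PD 52, and -0.80 without the L/Z pair at PD 52.

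Gene length moved with the cKO change. In L/Z at PD 52 the median over protein-coding genes was 0.26 under 1000 bases and -0.07 for 4000 bases and over. For the same classes it was 0.16 and 0.003 in L/Z at PD 24, and -0.21 and -0.06 in P at PD 24. These classes lay furthest apart in P at PD 52. There the median change over all protein-coding genes was -0.55 for those under 1000 bases and 0.05 for those of 4000 bases and over. The import genes lay below their length class in each case, at -0.92 (5 genes under 1000 bases), -0.76 (8 genes from 1000 to 1999), -0.55 (10 genes from 2000 to 3999) and -0.54 (13 genes of 4000 and over). After the trend on length was taken out of each library, the import genes' median in P at PD 52 was -0.55, against 0.003 for all genes. There 15 of 36 were lower by at least 1.5-fold, and 2253 of 18950 over all genes. In L/Z at PD 24 the import genes' median was 0.34, against 0.05 for all genes, with 33 of 36 above 0.

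**Figure D3:**
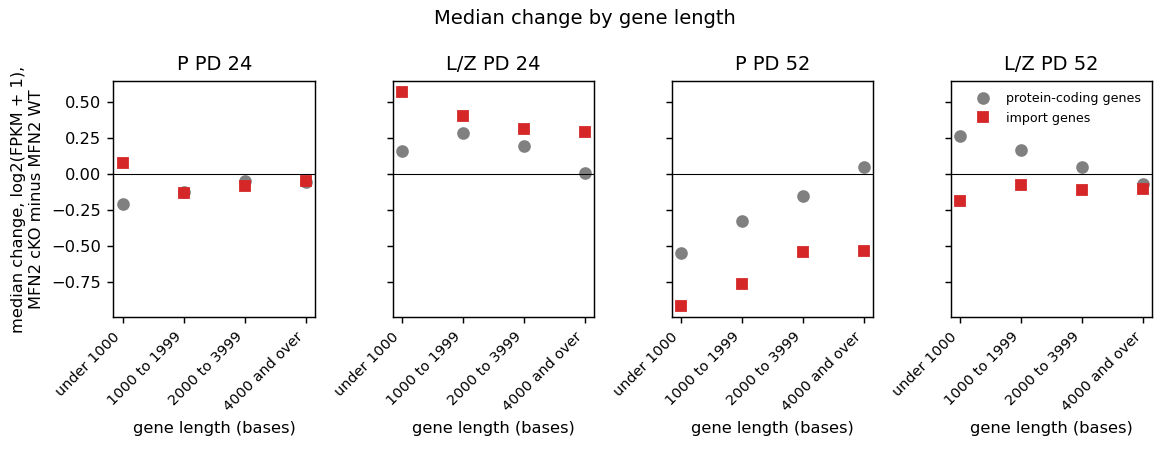
Median cKO minus WT change in log2(FPKM + 1) by class of gene length, for all protein-coding genes (grey circles) and the import genes (red squares), in the 4 pairs. In P at PD 52 the short genes of both kinds had the lowest medians (-0.55 and -0.92 under 1000 bases), and the import genes sit below the other genes in every class.

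The second comparison was between stages. P exceeded L/Z in 5 of the 36 genes (14.4% of all genes passed in this direction) and 0 were lower (18.4%), so the higher share was near that of all genes. The 5 were Tomm34, Timm8a2, Mtx3, Mtx2 and Samm50. The median log2 difference, P minus L/Z, was 0.20 against -0.02 for all genes, and 25 of 36 were above 0. In the WT libraries 28 of 36 at PD 24 and 32 of 36 at PD 52 were higher in P (53.9% and 47.2% of all genes), and in the cKO libraries 11 and 18 were (44.1% and 47.1%). These stage pairs use the same libraries as the cKO and WT pairs. Within each genotype and age the Sertoli markers summed higher in P. The spermatid, peritubular myoid and macrophage markers summed higher in L/Z, and the Leydig and spermatogonial ones went both ways. The part of these cells in the stage calls was not tested. A further fit left out both L/Z libraries at PD 52, which held the most spermatid marker RNA. It used main effects in place of the block, and its calls were Tomm34 and Mtx3. Timm8a2 then differed by 1.59 (SE 0.34, adjusted p = 0.0575 by limma), Mtx2 by 0.39 (SE 0.32, adjusted p = 0.475) and Samm50 by 0.35 (SE 0.29, adjusted p = 0.480). With main effects on all 8 libraries, Mtx2 (adjusted p = 0.0519 by limma) and Samm50 (adjusted p = 0.0737) did not pass either.

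The third was between ages. Higher at PD 52 than at PD 24 were 3 of 36 (13.7% of all genes), Gfer, Dnajc15 and Mtx1, and 0 were lower (6.47%). The median was -0.12 against -0.01 for all genes. None of the 3 passed without the L/Z libraries at PD 52, and scaling by total reads, which moved the median of all genes to -0.16, left only Gfer. Pam16 differed by 0.58 (SE 0.17, adjusted p = 0.0604 by limma), more than Mtx1, but did not pass. The WT P libraries had 28 of 36 higher at PD 52, against 48.8% of all genes, and the cKO P libraries 13, against 49.9%. In L/Z the WT libraries had 18 higher, against 57.0%, and the cKO libraries 13, against 50.5%.

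**Figure D4:**
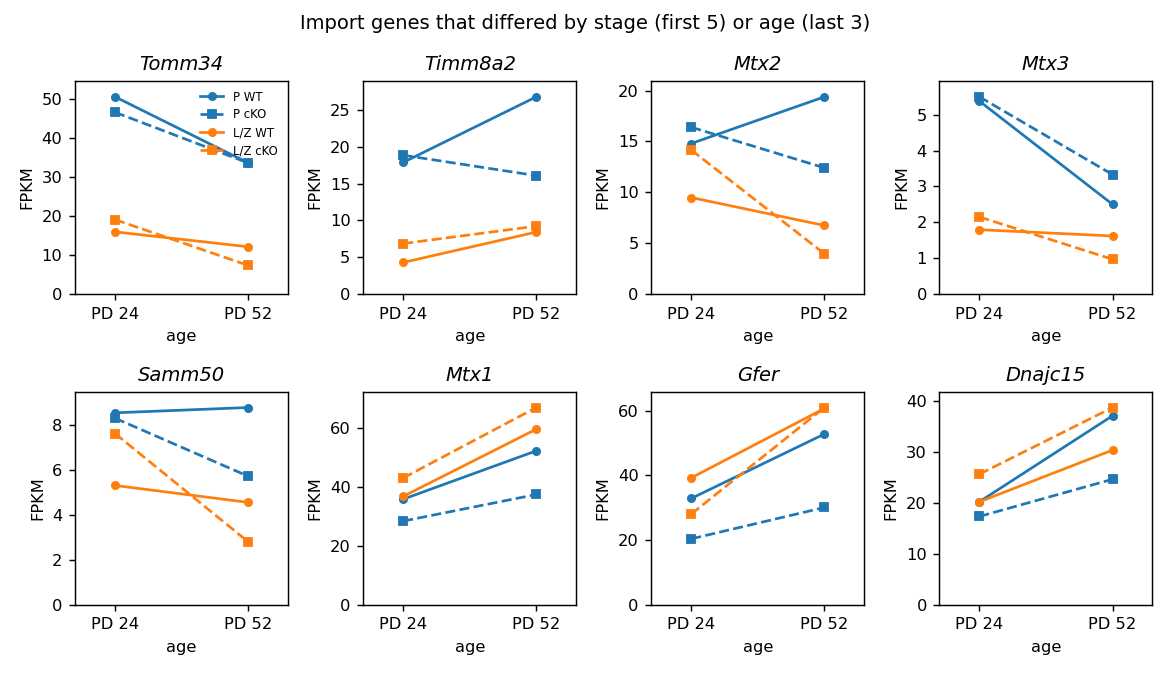
FPKM at PD 24 and PD 52 of the 5 import genes called by stage (Tomm34, Timm8a2, Mtx2, Mtx3, Samm50) and the 3 called by age (Mtx1, Gfer, Dnajc15), in P (blue) and L/Z (orange) libraries of MFN2 WT (solid) and MFN2 cKO (dashed), 1 library a point. Tomm34 and Timm8a2 are apart by stage in all libraries, while for Gfer the PD 24 and PD 52 ranges overlap.

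Among the TOM genes, the receptor Tomm20 was the reference, since its protein was stained in the study. It stood at 12.9 FPKM in P WT, 13.4 in P cKO, 10.7 in L/Z WT and 14.4 in L/Z cKO at PD 24, and at 19.8, 10.1, 10.4 and 9.26 in the same order at PD 52. P WT at PD 52 was the only library above 15 FPKM. The cKO minus WT change was 0.05 and 0.40 at PD 24 in P and L/Z and -0.91 and -0.15 at PD 52. Over the 4 pairs it was -0.15 (SE 0.23, adjusted p = 0.968 by limma), by stage 0.28 (SE 0.19, adjusted p = 0.283) and by age -0.11 (SE 0.22, adjusted p = 0.727), so Tomm20 passed none of these tests. The difference between the ages in the cKO change was -0.75 (SE 0.35, adjusted p = 0.432).

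Tomm20l, a paralog of Tomm20 on chromosome 12, had the higher FPKM in every library, by 1.75 to 7.12 times. This rests on the annotated lengths, 720 bases for Tomm20l and 4906 for Tomm20. Tomm20 had more reads in all libraries but L/Z WT at PD 52. The values that follow are those of Tomm20l. At PD 24 it stood at 41.0 FPKM in P WT, 33.7 in P cKO, 57.8 in L/Z WT and 62.8 in L/Z cKO. At PD 52 it stood at 75.2, 17.6, 74.0 and 28.0. Both WT libraries were high at PD 52 and both cKO libraries were the lowest of the 8. The change in cKO was -2.04 in P (95% interval from reads -2.26 to -1.81) and -1.37 in L/Z (-1.56 to -1.18) at PD 52, and -0.28 and 0.12 at PD 24. The intervals, exact binomial ones, cover counting error only. Over the 4 pairs the change was -0.89 (SE 0.36, adjusted p = 0.671 by limma), and the cKO change at PD 52 was below that at PD 24 by 1.62 on the log2 scale (fitted difference -1.62, SE 0.36, adjusted p = 0.155). P minus L/Z was -0.50 (SE 0.18, adjusted p = 0.0776). From WT to cKO at PD 52 the spermatid markers summed to 4704 and 2135 FPKM in P and to 10650 and 19700 in L/Z, and their part in the Tomm20l values was not tested. Its exons overlap Timm9 on the opposite strand over 6.81% of its exon bases, and the library kit does not mark strand.

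The small subunits Tomm5 and Tomm7 also changed most at PD 52 in P. Tomm5 stood at 5.65, 6.81, 4.33 and 7.79 FPKM at PD 24 (P WT, P cKO, L/Z WT, L/Z cKO) and at 11.1, 3.49, 1.85 and 1.497 at PD 52. It rested on few reads, 19 to 155 per library, and both L/Z libraries at PD 52 were its lowest. By age it differed by -0.66 (SE 0.41, adjusted p = 0.265 by limma). Tomm7 stood at 81.5, 54.1, 65.8 and 86.7 FPKM at PD 24 and at 142.4, 54.5, 79.6 and 71.0 at PD 52. Its cKO change was -0.58 and -1.37 in P at PD 24 and PD 52, and 0.39 and -0.16 in L/Z, so only 3 of 4 pairs were lower (-0.43 over the pairs, SE 0.29, adjusted p = 0.828).

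The pore protein Tomm40 was at 7.02, 6.72, 5.68 and 6.53 FPKM at PD 24 and 6.73, 3.95, 5.37 and 4.91 at PD 52. Its paralog Tomm40l was at 0.705, 0.628, 0.278 and 0.483 FPKM at PD 24 and 0.534, 0.215, 0.221 and 0.173 at PD 52, between 0.0353 and 0.1004 times Tomm40. The exons of Tomm40l share 64.3% of their bases with Nr1i3 on the opposite strand. The receptor Tomm22 ranged from 127.4 to 220.5 FPKM and the receptor Tomm70a from 18.2 to 23.0. Tomm6, a small subunit, was at 0 to 0.302 FPKM, and 84.2% of its exon bases are shared with other genes, so its level is uncertain. All 7 TOM genes tested were lower in cKO in P at PD 52, and all 7 higher in L/Z at PD 24.

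The SAM genes held 3 of the 5 stage calls. Samm50, the beta-barrel that inserts other beta-barrels into the outer membrane, was at 8.52, 8.28, 5.30 and 7.60 FPKM at PD 24 and 8.76, 5.71, 4.55 and 2.80 at PD 52. Within each genotype and age it was higher in P, although the P and L/Z ranges overlapped (0.59, SE 0.17, adjusted p = 0.0367 by limma). Mtx1, Mtx2 and Mtx3 code for metaxins, outer membrane partners of Samm50. Mtx2 was at 14.8, 16.4, 9.49 and 14.2 FPKM at PD 24 and 19.4, 12.4, 6.75 and 3.96 at PD 52. P exceeded L/Z by 0.90 (SE 0.24, adjusted p = 0.0276), and at PD 52 Mtx2 was lower in cKO in both stages (-0.60 in P and -0.64 in L/Z). Mtx3 was at 5.38, 5.50, 1.79 and 2.15 at PD 24 and 2.50, 3.33, 1.62 and 0.970 at PD 52. All 4 P libraries were above all 4 L/Z libraries (0.95, SE 0.18, adjusted p = 0.00922). Without the L/Z libraries at PD 52 and with main effects in place of the block, Samm50 and Mtx2 did not pass (0.35 and 0.39).

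Mtx1, the most abundant of the 3 metaxin genes in all libraries, went another way. It was at 35.8, 28.4, 36.8 and 43.0 FPKM at PD 24 and 52.2, 37.4, 59.6 and 66.9 at PD 52, higher at PD 52 in each of the 4 pairs (0.56, SE 0.12, adjusted p = 0.0311). P minus L/Z was -0.41 (SE 0.18, adjusted p = 0.121). Mtx2 therefore ran from 0.0593 times Mtx1 in L/Z cKO at PD 52 to 0.578 times in P cKO at PD 24. Of the Mtx1 exon bases, 30.1% are shared with genes on the opposite strand.

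**Figure D5:**
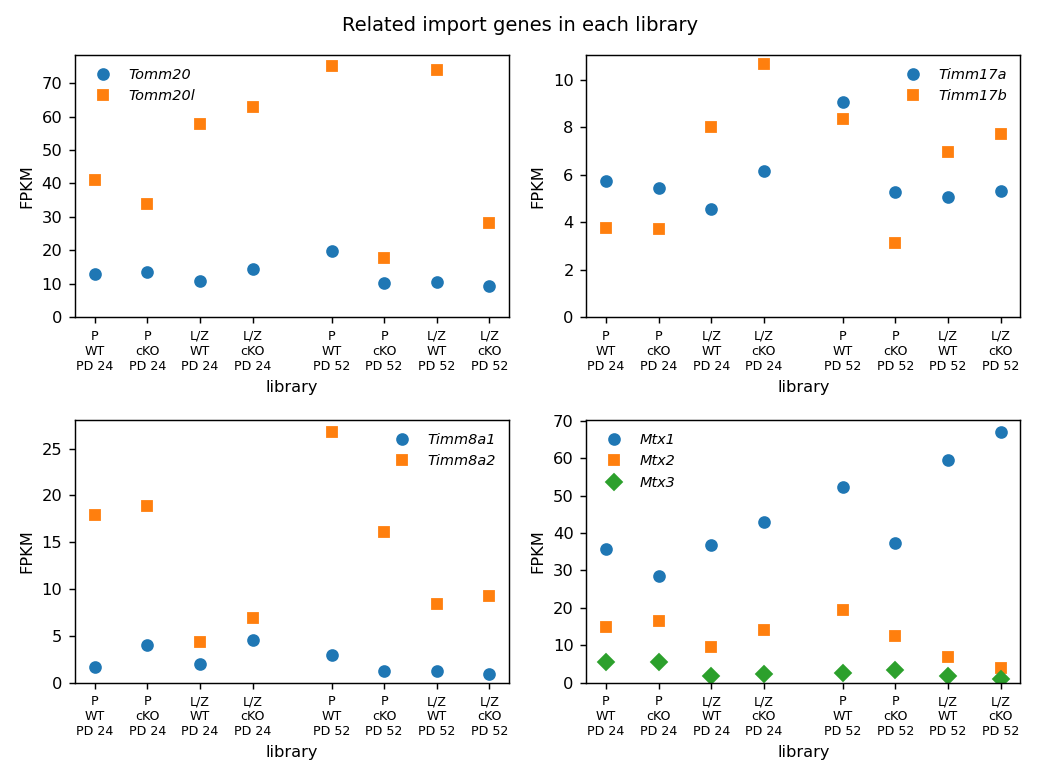
FPKM of related import genes in each of the 8 libraries (1 per group): Tomm20 and Tomm20l, Timm17a and Timm17b, Timm8a1 and Timm8a2, and Mtx1, Mtx2 and Mtx3. Tomm20l is above Tomm20 in all libraries and drops to 17.6 and 28.0 in the cKO libraries at PD 52, and Timm8a2 is above Timm8a1 in all libraries.

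Of the small TIM chaperones, which escort hydrophobic proteins between the membranes, Timm8a2 differed by stage. It stood at 17.9, 18.8, 4.29 and 6.85 FPKM at PD 24 and 26.8, 16.1, 8.41 and 9.22 at PD 52. Every P library was above every L/Z library (1.37, SE 0.20, adjusted p = 0.00489 by limma). Its X-linked paralog Timm8a1 was at 1.64, 4.05, 1.97 and 4.56 at PD 24 and 2.94, 1.21, 1.22 and 0.915 at PD 52. At PD 24 both cKO libraries were above both WT libraries (0.94 in P, interval 0.58 to 1.28, and 0.90 in L/Z, 0.55 to 1.25), and at PD 52 cKO was lower in P (-0.83, -1.24 to -0.40) and not separable from WT by counting error in L/Z (-0.21, -0.66 to 0.25). The difference between the ages was -1.44 (SE 0.32, adjusted p = 0.155). Timm8a1 rested on 19 to 115 reads per library, and 41.0% of its 50-base stretches also occur in Gm9797. Timm8a2 was 1.502 to 13.3 times Timm8a1.

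Timm8b, the import gene with the highest median FPKM, was at 171.0, 151.0, 122.7 and 182.0 FPKM at PD 24 and 318.6, 167.9, 169.9 and 201.0 at PD 52. P WT at PD 52 stood apart, and the cKO change was -0.92 there and 0.56 in L/Z at PD 24. Timm10 was at 9.24, 11.5, 5.58 and 12.3 at PD 24 and 14.8, 8.45, 6.80 and 5.79 at PD 52. Its rise of 1.02 in L/Z at PD 24 (0.68 to 1.35) was the largest of any import gene in that pair. Timm9 ranged from 2.89 to 4.63 FPKM and Timm13 from 15.1 to 44.7. All 6 small TIM genes were higher in cKO in L/Z at PD 24 and lower in P at PD 52. Of the TIM22 genes, Timm22, the channel, ranged from 1.98 to 6.23 FPKM and Timm29, a further subunit, from 5.29 to 14.0. Both were lowest in L/Z cKO at PD 52. Timm10b, at 0.261 to 0.929, did not pass the filter.

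In the TIM23 complex, Timm17a and Timm17b are alternative subunits of the channel. Timm17b, on the X chromosome, was at 3.76, 3.70, 8.03 and 10.7 FPKM at PD 24 and 8.34, 3.12, 6.98 and 7.73 at PD 52. It was lower in P than in L/Z in 3 of the 4 pairs and not in WT at PD 52 (-0.77, SE 0.26, adjusted p = 0.0569 by limma). Timm17a was at 5.73, 5.44, 4.54 and 6.16 at PD 24 and 9.08, 5.29, 5.08 and 5.30 at PD 52. The ratio of Timm17b to Timm17a was below 1 in all 4 P libraries (0.591 to 0.918) and above 1 in all 4 L/Z libraries (1.37 to 1.77), a description made after the values were seen. The sex chromosomes are known to be silenced in pachytene, and the part of this in the Timm17b values was not tested. Timm8a1, the other X-linked import gene, differed by 0.18 between the stages (SE 0.20, adjusted p = 0.521).

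The channel protein Timm23 ranged from 20.7 to 43.9 FPKM, highest in L/Z cKO at PD 24. Of its 50-base stretches 90.9% also occur in other genes, Gm10273 and Gm10171 foremost, so how reads were split among these is not known. The receptor Timm50 ranged from 6.01 to 17.1 FPKM, with a cKO change of -1.04 in P at PD 52, and Timm21, which couples TIM23 to the respiratory chain, from 6.64 to 15.6. All 5 TIM23 genes were higher in cKO in L/Z at PD 24 and lower in P at PD 52.

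The PAM genes included one of the age calls. Dnajc15, a J-protein of the inner membrane, was at 20.2, 17.3, 20.2 and 25.6 FPKM at PD 24 and 37.0, 24.6, 30.3 and 38.7 at PD 52, higher at PD 52 in each pair (0.62, SE 0.13, adjusted p = 0.0283 by limma). Pam16, which holds back the J-protein of the motor, was at 30.2, 26.3, 29.5 and 38.1 at PD 24 and 66.2, 32.6, 41.5 and 52.1 at PD 52. It was higher at PD 52 in each pair too, by most in P WT. Grpel1 and Grpel2 code for nucleotide exchange factors of the motor's Hsp70. Grpel1 was at 18.6, 16.5, 15.2 and 18.4 FPKM at PD 24 and 24.8, 16.9, 16.8 and 18.4 at PD 52. Grpel2 was at 3.39, 4.55, 3.11 and 4.56 at PD 24 and 2.37, 2.96, 2.70 and 1.82 at PD 52, and was the minor form throughout (0.0954 to 0.276 times Grpel1). It was higher in cKO in 3 of 4 pairs (0.15 over the pairs, SE 0.18, adjusted p = 0.953). Timm44, the anchor of the motor, ranged from 13.4 to 22.7 FPKM and Dnajc19, a further J-protein, from 1.98 to 5.03.

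Gfer, the sulfhydryl oxidase of the MIA pathway, was at 32.9, 20.4, 39.2 and 28.0 FPKM at PD 24 and 52.8, 30.1, 60.7 and 61.0 at PD 52. It was higher at PD 52 in each pair (0.73, SE 0.14, adjusted p = 0.0246 by limma) although P cKO at PD 52 stayed below both WT libraries of PD 24. In cKO it was lower in 3 of the 4 pairs, by at least 1.5-fold in P at both ages (-0.66 and -0.79), and level in L/Z at PD 52 (0.01, interval -0.09 to 0.11). Over the 4 pairs the change was -0.48 (SE 0.18, adjusted p = 0.624), and by stage -0.47 (SE 0.18, adjusted p = 0.0839). Of its 50-base stretches 27.5% also occur in Dst transcripts. Chchd4, the oxidoreductase that Gfer serves, ranged from 1.49 to 3.72 FPKM. Of the MPP subunits, Pmpca ranged from 14.1 to 22.9 FPKM and Pmpcb from 25.9 to 43.9.

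Tomm34 was the gene with the largest stage difference. It stood at 50.6, 46.6, 16.0 and 19.1 FPKM at PD 24 and 33.6, 33.6, 12.1 and 7.36 at PD 52. The lowest P library was well above the highest L/Z one (1.57, SE 0.17, adjusted p = 0.00361 by limma). At PD 52 cKO and WT did not differ in P beyond counting error (0.00, -0.10 to 0.10), and cKO was lower in L/Z (-0.65, -0.83 to -0.47). At PD 24 the cKO change was -0.12 in P (-0.19 to -0.04) and 0.24 in L/Z (0.12 to 0.37). By age Tomm34 differed by -0.67 (SE 0.19, adjusted p = 0.0537 by limma). Timmdc1 was at 7.53, 6.78, 4.95 and 7.62 at PD 24 and 6.85, 3.71, 4.72 and 2.22 at PD 52, lower in cKO in both stages at PD 52 (-0.74 and -0.83).

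The partners of import outside these genes were read from a fixed list of which 21 were found and tested: matrix chaperones, inner membrane peptidases and insertases, and the cristae proteins that sit beside SAM. By genotype 0 of 21 passed in either direction. By stage 2 were higher in P, where 14.4% of all genes were (Dnajc11, a partner of SAM at cristae junctions, and Agk, a TIM22 subunit) and 2 lower, where 18.4% were (Mipep, a matrix peptidase, and Apoo, a cristae protein). By age 4 were higher at PD 52, where 13.7% of all genes were (Chchd3 and Chchd6, both of cristae junctions, 2410015M20Rik and Mipep) and 1 lower, where 6.47% were (Mtch1, an outer membrane insertase). Within pairs the partners had medians of -0.08 in P and 0.26 in L/Z at PD 24, and -0.45 in P and 0.08 in L/Z at PD 52. In P at PD 52, 9 of 20 were at least 1.5-fold lower in cKO, against 16.5% of all genes, among them Hspe1, the co-chaperonin of the matrix, and Romo1, a subunit of the TIM23 complex.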

How the data were processed

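RNA-seq values were taken from the gene table of the series. Per the labels and methods, total RNA was made into libraries with the NEBNext Ultra kit, which does not mark strand, and sequenced as paired ends on an Illumina HiSeq. The authors deposited FPKM per gene. The submitters' processing notes name CASAVA 1.4, Bowtie 0.12.2, mm8 and mm9; the counter and the build of the table are not given in the sources used here. The table's coordinates match GENCODE mouse release 21 for 36 of the 39 genes. The FPKM followed size factors and not total reads.

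The deposited unit being FPKM, the main test was one for log values, and DESeq2, the authors' test, was not run. Values were tested as log2(FPKM + 1) with limma 3.58.1 in R 4.3.3 (trend, Benjamini-Hochberg over 18950 genes above 1 FPKM in at least 2 libraries, threshold 0.05). Genotype, stage and age were each tested over 4 pairs with the other 2 factors as a block (3 residual degrees of freedom), and genotype by age with 2. A fold change on this scale understates that of low genes. Whole reads were recovered for 100% of values (within 0.01 read), used for limma-voom and for exact binomial (Clopper-Pearson) 95% intervals of pair changes, which cover counting error only. Python 3.11.15, pandas 2.3.3, scipy 1.17.1 and matplotlib 3.10.9 were used, and the fits were tested on simulated data.

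All import genes are named. Values in every library are given for the 3 largest rises and falls in the genotype, stage and age fits, genes past 1.5-fold with 1 sign in 2 or more pairs, the paralog sets, X-linked genes and Tomm20, and also for Samm50 and Mfn2. The genes, lists and tests were chosen with earlier results of these data known. Alternatives were another pseudocount, no filter, other scaling, other fits and leaving out pairs; total-read scaling, removal of the gene-length trend, leaving out the L/Z PD 52 libraries and leaving out pairs in the interaction were added after seeing the data.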

Additional observations from a re-analysis of the deposited data

How the results depend on the processing

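The count of 0 import genes by genotype held under every alternative run. By stage, 5 were higher in P; 3 were without the FPKM filter or with main effects only, 2 with no block or without the L/Z PD 52 libraries, and 2 to 8 with one pair left out. The count lower in P was 0; it was 3 with median-of-ratios scaling, 1 with limma-voom or the gene-length trend removed, and 0 to 2 with one pair left out. By age, 3 were higher at PD 52; 0 were without the filter, with no block or without the L/Z PD 52 libraries, 1 with total-read scaling, and 0 to 3 with one pair left out. The count lower was 0; it was 2 with limma-voom or total-read scaling, 1 with main effects only, and 0 to 2 with one pair left out. For genotype by age, 0 were lower; 1 was with limma-voom, and 0 to 1 with one pair left out. Within pairs, a fold of 2 left 0 higher and 0 lower in P at PD 24, 1 higher in L/Z at PD 24, 7 lower in P at PD 52 and 1 lower in L/Z at PD 52. A pseudocount of 0.1 gave 2 lower in P at PD 24, 7 higher in L/Z at PD 24 and 8 lower in L/Z at PD 52. In P at PD 24, total-read scaling gave 0 lower. The causes of these shifts were not tested. Mtx2, Samm50, Mtx3, Dnajc15, Mtx1 and Gfer each lost their call under more than one of them. The labels give no replicate numbers, so the pairs are libraries that share the other 2 factors and not samples known to come from the same animals. Among the 36 genes tested, Tomm5 and Timm8a1 had the fewest reads, so with 1 library a group depth limits them most. The genes that did not pass the filter had few as well: Tomm6 0 to 5, Tomm40l 13 to 73 and Timm10b 14 to 64 per library.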

Other observations

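In the partner list, 17 of 21 genes were above 0 (cKO minus WT) in L/Z at PD 24, against 57.0% of all genes, and 17 of 20 below 0 in P at PD 52, against 54.4% of all genes. Romo1 was the partner at least 1.5-fold higher in cKO in L/Z at PD 24. The fitted difference between the ages in the cKO change was below 0 for 16 of 21 partners (48.3% of all genes), with a median of -0.25 (0.02 for all genes), and 0 passed the test in either direction by limma.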
